A study of Arabidopsis thaliana with 3 samples.

Results

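The miRNAs described here are the recently annotated Arabidopsis miRNAs, those whose family number is 5000 or above. They were chosen by name alone from the Col library, leaving out star strands and names that end in an arm label, which gave 70 of the 328 miRNAs listed. Their reads were taken from 3 small RNA libraries of untreated 22-day-old seedlings grown in soil under long days. The libraries came from dcl1-9, the mutant that makes a form of DCL1 truncated in its C-terminal double-stranded RNA binding domains, from cdf2, a mutant of the DOF transcription factor gene CDF2, and from wild-type plants of the ecotype Col. Neither mutant is described further in the labels, and the number of plants behind a library is not given in the sources used here. With 1 library per genotype there is no replicate check: every difference below is between 2 libraries, and its 95% interval (Clopper-Pearson) covers counting error only. The small RNA tables hold no mRNA, so neither the levels of DCL1 and CDF2 nor tissue markers could be looked up.

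In plants, DCL1 acts with HYL1 and SERRATE to cut a miRNA out of the hairpin of its primary transcript, and the mature strand is then loaded into an AGO protein, AGO1 preferring strands that begin with U. Old families are shared among plants and are mostly abundant, while miRNAs numbered late were found by deep sequencing, are often lineage-specific and are often weakly expressed. Young hairpins can be long and nearly perfectly paired, and some of them (miR822, miR839 and miR869) are known to be cut by DCL4 in place of DCL1. DCL4 and DCL3 otherwise make siRNAs, DCL3 the longer ones that arise from repeats. A product of DCL1 should be lower in dcl1-9, though not always absent, and CDF2 was studied as a protein that binds DCL1 and regulates some miRNA genes.

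Mature sequences were read from the RefSeq annotation of the TAIR10.1 genome, where 63 of the 70 miRNAs had a single mature entry. The other 7 (miR5015a, miR5015b, miR5017, miR5632, miR5639, miR5654 and miR5663) are described by their reads only. The sequences below are shown because the comparison with dcl1-9 turns on them, and capitals mark the seed, bases 2 to 8 from the 5′ end. The first set comprises the 7 sequences that, next to miR5026, had at least 10 reads in dcl1-9.

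miR5642a and miR5642b: uCUCGCGCuuguacggcuuu
miR5635a to miR5635d: uGUUAAGGaguguuaacggug
miR5643a and miR5643b: aGGCUUUUaagaucugguugc
miR5645a, miR5645b, miR5645d, miR5645e and miR5645f: aUUUGAGUcaugucguuaag
miR5659: cGAUGAAGgucuuuggaacggua
miR5644: gUGGGUUGcggauaacggua
miR5653: uGGGUUGAguugaguugaguuggc

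The second set holds the most abundant of these miRNAs in Col and others of 21 bases that had 0 to 4 reads in dcl1-9.

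miR5026: aCUCAUAAgaucgugacacgu
miR5020a: uGGAAGAAggugagacuugca
miR5020b: aUGGCAUGaaagaaggugaga
miR5020c: uGGCAUGGaagaaggugagac
miR5641: uGGAAGAAgaugauagaauua
miR5656: aCUGAAGUagagauuggguuu
miR5645c: aACCUAUUuaacgacaugacu
miR5661: aGAGGUACaucauguagucug
miR5023: aUUGGUAGuggauaagggggc
miR5652: uUGAAUGUgaaugaaucgggc

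Rows with one family number can therefore be the same molecule. The 63 annotated miRNAs held 52 distinct sequences, since the 4 miR5635 rows, 5 of the 6 miR5645 rows, both miR5642 rows, both miR5643 rows, both miR5630 rows and both miR5649 rows each have an identical mature sequence. The 3 miR5020 miRNAs are shifted relatives: miR5020a and miR5020c share a run of 16 bases that starts at base 1 of miR5020a and base 6 of miR5020c, and each shares 12 bases with miR5020b. miR5020a has the seed of miR5641, the only seed shared between different sequences. miR5645c is the reverse complement of the other miR5645 sequence over 14 bases. Lengths were 20 bases for 11 miRNAs, 21 for 48, 22 for 1, 23 for 1 and 24 for 2. The first base was U in 26 of the 63 and A in 28, the others starting with G (6) or C (3). The sequence occurred once in the genome for 34 miRNAs and at 2 or more places for 29. Of the 63 annotated positions, 24 lay within another annotated gene, and 10 of these were on the opposite strand of an exon of a protein-coding gene.

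Depth differed little in the total reads that the study states, more for dcl1-9 in the totals of the deposited tables, and widely in miRNA reads. Reads were scaled to RPM, the field's usual unit of reads set against the total reads of the library as the study states them, which makes 1 read worth 0.0764 RPM in dcl1-9, 0.0810 in cdf2 and 0.0870 in Col. The listed miRNAs summed to 378685 reads in dcl1-9, 5248526 in cdf2 and 8833288 in Col. Over all miRNAs that reached 10 reads in a pair, the median log2 change was −4.43 in dcl1-9 and −0.40 in cdf2. A scale set on the miRNAs themselves removes such a shift: the sum of miRNA counts raised every log2 change by 4.73 in dcl1-9 and by 0.86 in cdf2, DESeq2 size factors by 4.89 and 0.39, and TMM factors by 5.37 and 0.25. The totals of the deposited tables moved the log2 changes by 0.76 in dcl1-9 and 0.07 in cdf2, and genome-matched reads by 0.34 in dcl1-9 and −0.81 in cdf2. The last scale is in doubt. The genome-matched reads that the study states for Col are fewer than its miRNA reads, also when only the largest row of each family number is summed (2669903). Changes on the total-read scale are therefore given beside that of all miRNAs, and shares within a library, which no scale alters, are given where they exist.

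Most of these miRNAs were rare. At least 1 read was found for 29 of the 67 that the dcl1-9 library lists, for 54 of 70 in cdf2 and for 53 of 70 in Col. At least 10 reads were found for 17 in dcl1-9, 35 in cdf2 and 35 in Col, and the median was 0 reads in dcl1-9, 11 in cdf2 and 8.5 in Col. The dcl1-9 library has no row for miR5015a, miR5015b and miR5654, of which the last 2 had 5 reads each in Col. Together the group made up 0.239% of miRNA reads in dcl1-9, 0.367% in cdf2 and 0.210% in Col. miR5645a and miR5645b had equal counts in all 3 libraries, as did miR5635b and miR5635c, so the same reads appear to be counted in more than 1 row. Such counting affects this share and the summed miRNA reads. With only the largest row of each family number, the Col sum fell from 8833288 to 2669903. The share of the group, taken in this way on both sides, was 0.620% in dcl1-9, 0.863% in cdf2 and 0.519% in Col.

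Reads were concentrated in a few families. miR5026, which lies at chr4:7844612-7844632 (+) in an intron of the noncoding RNA gene AT4G13495 with a second copy at chr5:14318730-14318750, was the most abundant in Col and in cdf2, with 9501 reads in cdf2 and 10024 in Col. It held 10.06% of the group's reads in dcl1-9, 67.8% in cdf2 and 72.3% in Col when the largest row per family number was taken. In dcl1-9 the order was another one: miR5642a led with 161 reads, followed by miR5642b with 117 and miR5635d with 68, and miR5026 came next with 50. The plot of reads by library shows that the 36 miRNAs reaching 10 reads in a library span from 4 to 10024 reads in Col, and that the dcl1-9 points do not follow the Col order.

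**Figure D1:**
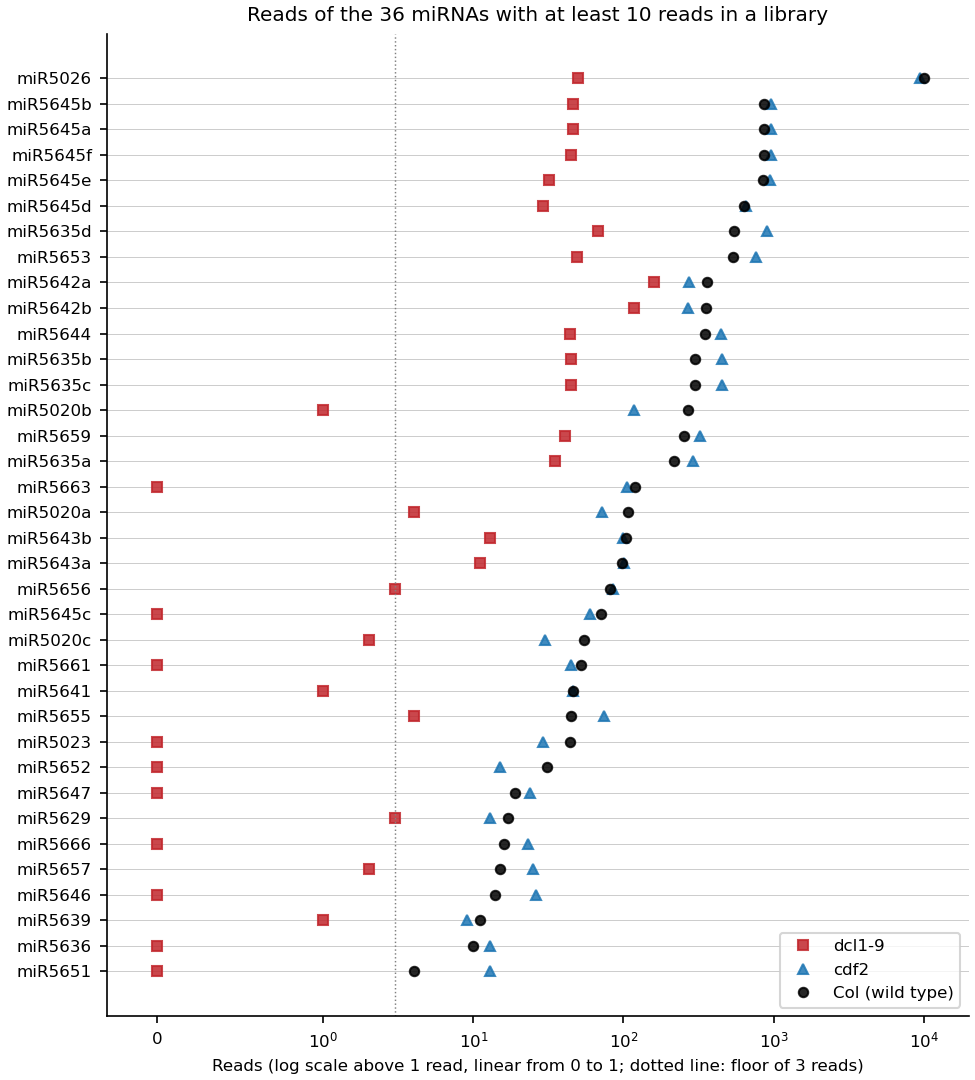
Reads of the 36 miRNAs that reached 10 reads in at least 1 library, in dcl1-9 (red squares), cdf2 (blue triangles) and Col (black circles), 1 library each, on an axis that is logarithmic above 1 read and linear from 0 to 1. Unscaled dcl1-9 points lie left of the Col points, 9 of them at 0 reads although Col had 10 or more, while cdf2 points lie close to Col.

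At the other end, 11 miRNAs had 0 reads in all 3 libraries (miR5013, miR5018, miR5019, miR5021, miR5022, miR5027, miR5028, miR5630a, miR5630b, miR5658 and miR5660), and miR5015a had 0 in cdf2 and 0 in Col, the libraries that list it. A count of 0 allows up to 3 reads, or 0.229 RPM in dcl1-9, 0.243 in cdf2 and 0.261 in Col, so these were not detectable at this depth. Another 20 had reads but fewer than 10 in all 3 libraries. miR5015b had 9 reads in cdf2 and 5 in Col and miR5654 had 8 in cdf2 and 5 in Col, with no value in dcl1-9. Of the 16 miRNAs with 1 to 9 reads in Col that the dcl1-9 library lists, 13 had 0 reads in dcl1-9. The exceptions were miR5633, with 4 reads in dcl1-9, 4 in cdf2 and 7 in Col, miR5662, with 1, 9 and 4, and miR5029, with 2 reads in dcl1-9 and 1 each in cdf2 and Col. Reads in cdf2 but none in Col were found for miR5025, miR5628, miR5637, miR5638a and miR5650, at 1 to 4 reads, and reads in Col but none in cdf2 for miR5016, miR5649a, miR5649b and miR5664, at 1 or 2 reads. Counts of this size do not separate the libraries.

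Whether these miRNAs were lower in dcl1-9 was asked first. A miRNA was called lower or higher where its RPM differed at least 1.5-fold and the 95% counting interval of the ratio excluded 1, among miRNAs with at least 10 reads in the 2 libraries together. By that rule 35 of 36 were lower in dcl1-9 and 0 were higher. Over all miRNAs 99% of 204 were called lower and 0% higher, so the count is near the background and says nothing particular to this group. The exception was miR5633, at 4 reads in dcl1-9 and 7 in Col. The size of the decrease did differ: the median log2 change was −3.45 for these miRNAs and −5.03 for the other 168, a gap of 1.58 that is the same on every scale. The low-numbered families (miR156 to miR172, miR319, miR390 to miR399, miR403 and miR408), listed by number and not by conservation, had a median of −5.53 over 93 miRNAs. That of the families miR771 to miR870 was −4.29 over 36, and that of the DCL4-dependent miR822, miR839 and miR869 was −3.51 over 3. In these medians a library with 3 reads or fewer was set to 3 reads, which shortens the change of rare miRNAs. Scales set on the miRNAs themselves turned the sign: the median of these miRNAs was 1.28 with the sum of miRNA counts, 1.44 with DESeq2 size factors and 1.92 with TMM factors. Values on those scales are relative to the other miRNAs. The median was −2.69 with the totals of the deposited tables and −3.11 with genome-matched reads.

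Since rare miRNAs cannot show a large decrease, miRNAs of like abundance were compared, a choice made after the values were seen. Among miRNAs with 100 to 1000 reads in Col, the 18 of this group kept a median of 9.53% of their Col RPM in dcl1-9 (range 0% to 39.1%), against 0.382% (range 0% to 24%) for the 49 others. At most 3 reads in dcl1-9 were left for 2 of the 18 and for 32 of the 49. The 2 ranges overlap, and the 18 include rows with an identical sequence. At other abundances the group did not stand out in this way. Above 1000 reads in Col, its 1 miRNA, miR5026, kept 0.438%, below the median of 1.08% for the 49 others. At 10 to 99 reads in Col, the medians were 0.955% for 16 miRNAs of the group and 0% for 68 others, and 14 of the 16 and 56 of the 68 had at most 3 reads in dcl1-9. Of the 117 miRNAs that reached 100 reads in Col, 19 belong to this group, and they made up 6 of the 10, 10 of the 15 and 10 of the 20 that kept the largest shares in dcl1-9. Rows of miR5642, miR5635 and miR5643, with 1 sequence per family, account for most of them. Places 1 and 2 were taken by miR5642a and miR5642b, followed by miR160a (24%) and miR160c (23%), members of a conserved family that targets auxin response factors. miR168b and miR168a, with 129158 and 129349 reads in Col, took places 9 and 10 and kept 11.7%. Places 17 to 20 went to rows of miR166, which kept 6.58%. Shares of about 10% were thus not particular to this group.

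At most a few reads in dcl1-9 were left for part of the group. Of the 35 miRNAs that reached 10 reads in Col, 16 (45.7%) had at most 3 reads in dcl1-9, against 106 of 201 (52.7%) of all miRNAs. The 9 with 0 reads in dcl1-9 were miR5663, miR5645c, miR5661, miR5023, miR5652, miR5647, miR5666, miR5646 and miR5636. miR5663 had 0 reads in dcl1-9, 106 in cdf2 and 120 in Col, which is at least 45.5-fold lower in dcl1-9 when 3 reads are taken as the floor of that library. For miR5645c (0 reads in dcl1-9, 60 in cdf2 and 71 in Col) the decrease was at least 26.9-fold. miR5661, on the opposite strand of an exon of AT4G19080 at chr4:10449331-10449351 (+), had 0 reads in dcl1-9, 45 in cdf2 and 52 in Col, at least 19.7-fold lower. These folds are against the floor and do not cover counting error. With it, the upper 95% bounds were 2.74% of Col for miR5663, 4.68% for miR5645c and 6.46% for miR5661, which are decreases of at least 36.5-fold, 21.3-fold and 15.5-fold.

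The other miRNAs without reads in dcl1-9 were rarer in Col and their bounds are looser. The folds below again take 3 reads as the floor, and the bounds with counting error follow. miR5023 had 0 reads in dcl1-9, 29 in cdf2 and 44 in Col (16.7-fold lower). miR5652, on the opposite strand of an exon of AT1G63130, had 0, 15 and 31 (11.8-fold lower). At chr1:22084310-22084330 (−), on the opposite strand of an exon of ARL2, miR5647 had 0 reads in dcl1-9, 24 in cdf2 and 19 in Col (7.21-fold lower). The decrease fell to 6.07-fold for miR5666 (0 reads in dcl1-9, 23 in cdf2, 16 in Col), 5.31-fold for miR5646 (0, 26 and 14) and 3.80-fold for miR5636 (0, 13 and 10). With counting error, the decreases were at least 13.0-fold for miR5023, 9.01-fold for miR5652 and 5.31-fold for miR5647. They were at least 4.39-fold for miR5666, 3.78-fold for miR5646 and 2.55-fold for miR5636. miR5636 maps to the opposite strand of an exon of TAS1B, a noncoding transcript that is cut into trans-acting siRNAs. miR5651, with 0 reads in dcl1-9, 13 in cdf2 and 4 in Col, was too rare in Col for a comparison.

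A further 7 kept 1 to 3 reads. miR5020b had 1 read in dcl1-9, 118 in cdf2 and 270 in Col, a ratio to Col of 0.00325 (interval 0.0000821 to 0.0183). miR5020c had 2 reads in dcl1-9, 30 in cdf2 and 55 in Col (ratio 0.0319, interval 0.00377 to 0.121), and miR5641, which has the seed of miR5020a, had 1, 46 and 46 (ratio 0.0191, interval 0.000473 to 0.112). miR5656, in an intron of AT1G05780 on the same strand, had 3 reads in dcl1-9, 85 in cdf2 and 81 in Col (ratio 0.0325, interval 0.00657 to 0.0985). The 4 just named lost at least 1 order of magnitude by their point ratios. For the remaining 3 the intervals are too wide to say more than that they were lower: miR5629 had 3 reads in dcl1-9, 13 in cdf2 and 17 in Col (ratio 0.155, interval 0.0291 to 0.536), miR5657 had 2, 25 and 15 (ratio 0.117, interval 0.0130 to 0.504), and miR5639 had 1, 9 and 11 (ratio 0.0798, interval 0.00186 to 0.549). The ratios of these 3 were above 1 on each scale set on the miRNAs themselves, and those of miR5020c (1.32) and miR5656 (1.35) with TMM factors alone.

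miR5026 was the deepest measurement in the group. It had 50 reads in dcl1-9, 9501 in cdf2 and 10024 in Col, or 3.82 RPM in dcl1-9, 769 in cdf2 and 872 in Col. The level in dcl1-9 was 0.438% of Col (interval 0.325% to 0.578%), which is 228-fold lower. miR5020a, at chr4:6791401-6791421 (−), had 4 reads in dcl1-9, 72 in cdf2 and 108 in Col and kept 3.25% (0.871% to 8.57%), a ratio that was 1.35 with TMM factors. miR5026 and miR5020b were also lower than Col by this rule with all 5 other scales tried, and miR5663 with 4 of them, the exception being TMM.

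The other 17 of the 19 miRNAs with more than 3 reads in dcl1-9 kept between 3.29% and 39.1% of their Col level, and on the total-read scale all were lower in dcl1-9. The largest share was that of miR5642a, with 161 reads in dcl1-9, 274 in cdf2 and 362 in Col, which is 39.1% of the Col RPM in dcl1-9 (32.2% to 47.2%). miR5642b, with the same 20-base sequence, had 117 reads in dcl1-9, 271 in cdf2 and 354 in Col, or 29.0% (23.3% to 35.9%). The sequence printed above occurs 3 times in the genome. At chr3:14197116-14197135 (+) and chr2:3145-3164 (+), the positions of the miR5642a and miR5642b hairpins, it lies 542 bases from an annotated 18S rRNA gene. The copy on chromosome 2 is also within an exon of AT2G01008, and the third copy, at chr2:7191162-7191181, is within an exon of AT2G16586. Relative to the sum of miRNA counts both were higher in dcl1-9, 10.4-fold for miR5642a and 7.71-fold for miR5642b.

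By point value, miR5635, miR5659, miR5644 and miR5643 formed a second tier, with 9.86% to 14.2% of the Col level. miR5635d had 68 reads in dcl1-9, 901 in cdf2 and 542 in Col and kept 11.0% (8.43% to 14.2%). miR5635a had 35, 291 and 216 reads in the same libraries and kept 14.2%, and miR5635b and miR5635c had 45, 452 and 299 reads each and kept 13.2%. The sequence of the 4 is identical, and the rule by which reads of several possible origins were counted is not given in the sources used here. Why the counts of the 4 rows differ was not tested. miR5659, of 23 bases, had 41 reads in dcl1-9, 324 in cdf2 and 253 in Col and kept 14.2% (9.97% to 19.9%). For miR5644, of 20 bases and with 1 genomic copy, the reads were 44 in dcl1-9, 445 in cdf2 and 352 in Col, or 11.0% kept (7.84% to 15%). miR5643a had 11 reads in dcl1-9, 101 in cdf2 and 98 in Col (9.86% kept) and miR5643b had 13, 100 and 104 (11.0% kept), from a sequence that occurs 15 times in the genome. All intervals of this tier overlap, and each of these miRNAs had a ratio above 1 with the sum of miRNA counts, with DESeq2 size factors and with TMM factors.

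The lowest tier by point value held miR5653, miR5655 and miR5645. The counting intervals do not separate this tier from the second, since those of miR5653 and miR5655 reach into its range. Those of miR5642a and miR5642b begin at 32.2% and 23.3%, above the upper bounds in both tiers. miR5653, of 24 bases, had 49 reads in dcl1-9, 770 in cdf2 and 533 in Col and kept 8.07% (5.90% to 10.8%). miR5655, in an intron of AT2G45930 on the opposite strand, had 4, 74 and 45 reads and kept 7.81% (2.04% to 21.4%). The miR5645 sequence of 20 bases, with 5 genomic copies, had 29 to 46 reads in dcl1-9, 654 to 965 in cdf2 and 635 to 861 in Col over its 5 rows, which kept 3.29% (miR5645e) to 4.69% (miR5645a and miR5645b). miR5645c, whose sequence is complementary to it over 14 bases and occurs at 13 places, had 0 reads in dcl1-9. The upper bound of miR5645c, 4.68%, lies at the level of its relatives, so a difference between them was not detectable at this depth. miR5653, miR5655 and the 20-base miR5645 rows had ratios above 1 on the same 3 scales, except miR5645e, whose ratio passed 1 with TMM factors alone (1.36).

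**Figure D2:**
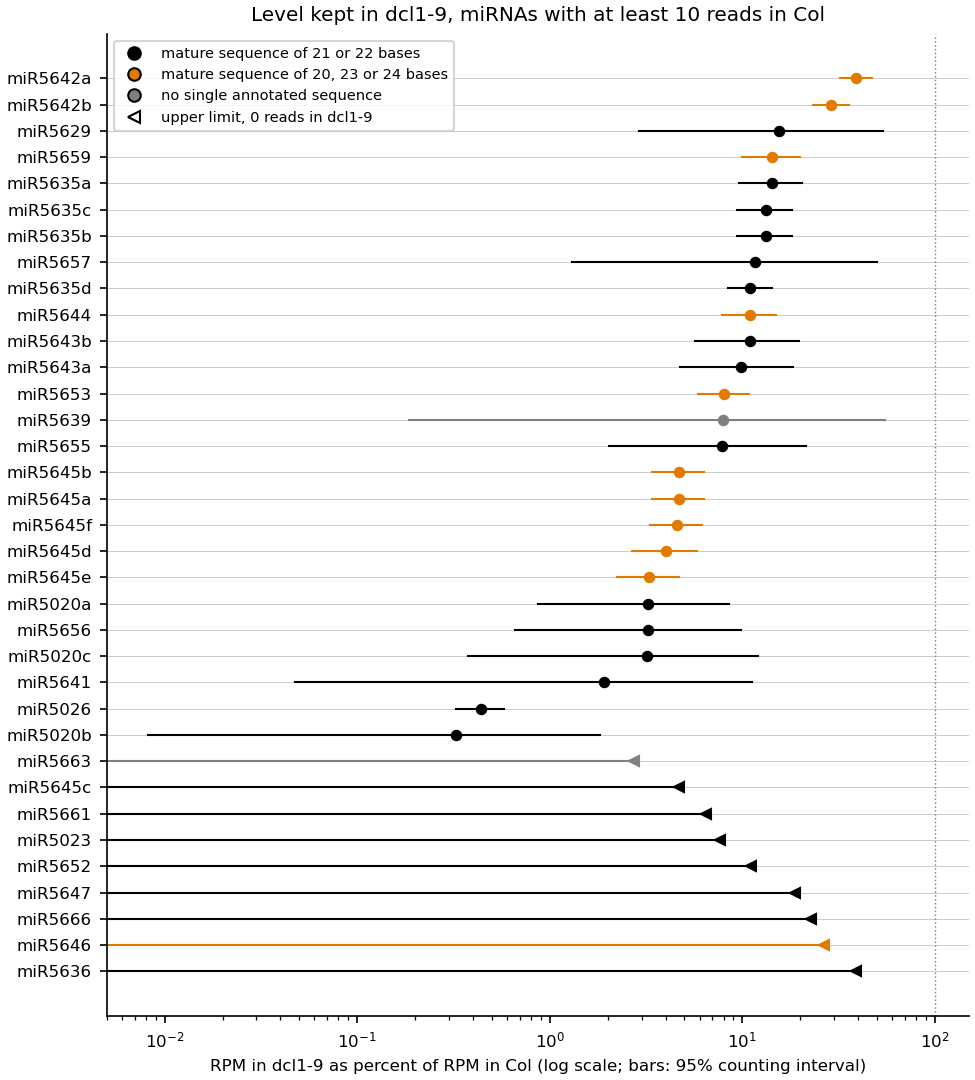
RPM in dcl1-9 as a percent of RPM in Col (log axis) for the 35 miRNAs that reached 10 reads in Col, 1 library per genotype, with 95% counting intervals as bars, triangles at the upper bound where dcl1-9 had 0 reads, and colours for the length of the mature sequence. On this total-read scale every point is left of the dotted line at 100%, miR5642a is nearest to it at 39.1%, and 19 to 23 of these miRNAs lie on its other side if scales set on the miRNAs themselves are used.

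Length and copy number played no part in choosing the miRNAs, and are given here beside the share kept. Of the 33 miRNAs that reached 10 reads in Col and had an annotated sequence, 22 had 21 or 22 bases, and 13 of these had at most 3 reads in dcl1-9. Of the 11 with 20, 23 or 24 bases, 1 did (miR5646). Over rows, the medians of the share kept were 3.22% for 21 or 22 bases and 4.69% for 20, 23 or 24 bases. The 22 rows hold 18 distinct sequences and the 11 hold 6, and 4.69% is the value of miR5645a and miR5645b. Rows that repeat a sequence thus weigh on these medians, which do not settle whether the share kept differed by length. By genomic copies, 11 of the 14 single-copy sequences and 3 of the 19 with 2 or more copies had at most 3 reads in dcl1-9. By both features, the 15 miRNAs of 21 or 22 bases with 1 or 2 copies kept a median of 0.438% (0% to 15.5%) and of which 12 had at most 3 reads in dcl1-9. The 7 of 21 or 22 bases with 3 or more copies kept a median of 11.0%, the 3 of other lengths with 1 or 2 copies 11.0%, and the 8 of other lengths with 3 or more copies 4.64%.

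The counts at 3 reads or fewer moved with the Col reads themselves: 13 of the 15 miRNAs with 10 to 99 reads in Col had at most 3 in dcl1-9, against 1 of the 18 with 100 or more, and the part of Col abundance in the differences by length and copies was not tested. The rows of a class are also not independent, since the 7 hold 3 distinct sequences and the 8 hold 3. Among miRNAs that reached 100 reads in Col, those of 21 or 22 bases with 1 or 2 copies were miR5026, miR5020a and miR5020b, which kept 0.325% to 3.25%. The other 15, from 7 distinct sequences, kept 3.29% to 39.1%. This split was made after the values were seen and rests on where the copies are divided, since miR5026 has 2 copies, and the counting interval of miR5020a (0.871% to 8.57%) reaches into the range of the 15. By first base the shares kept were mixed: the medians were 11.4% for the 14 miRNAs beginning with U and 3.29% for the 15 beginning with A, and 6 in each class had at most 3 reads in dcl1-9.

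**Figure D3:**
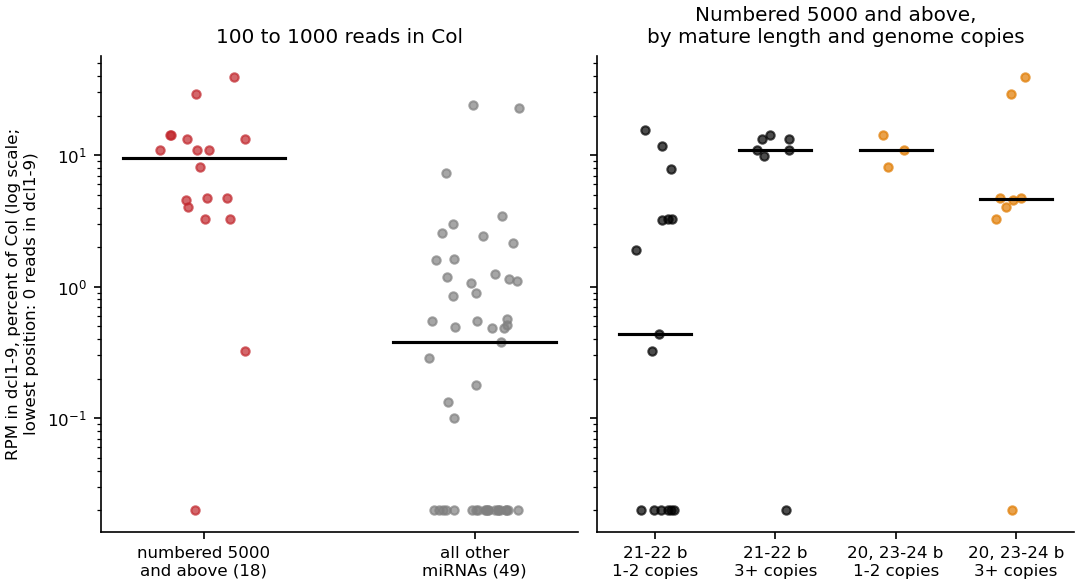
RPM in dcl1-9 as a percent of RPM in Col (log axis, 0 reads drawn at the lowest position), 1 point per miRNA and bars at the medians; on the left miRNAs numbered 5000 and above beside all others with 100 to 1000 reads in Col, on the right the 33 with an annotated sequence and at least 10 reads in Col, by mature length in bases and genome copies. The medians on the left are 9.53% and 0.382%, and on the right only the first class, 21 or 22 bases with 1 or 2 copies, has a median under 1%, a class in which 12 of 15 are below 100 reads in Col; another scale moves all points by one factor.

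In cdf2 most of these miRNAs were near their Col level. By the same rule 4 of the 41 with at least 10 reads in the pair were lower (9.76%), 2 were higher (4.88%) and 35 were neither, while over all 230 miRNAs 28.7% were called lower and 8.26% higher. The median log2 change was 0.05 for this group, −0.49 for the other 189, −0.59 for the low-numbered families listed above and −0.32 for miR771 to miR870. The gap of 0.54 to the others does not depend on the scale, whereas the calls do: 0 to 21 were lower and 0 to 24 higher over the scales tried. The 21 lower calls and a median of −0.76 for this group came from genome-matched reads, the scale in doubt. Among miRNAs with 100 to 1000 reads in Col, the median level in cdf2 was 104% of Col for the 18 of this group and 84.3% for the 49 others. In that range 2 of the 18 and 8 of the 49 were called lower. Above 1000 reads in Col, 34 of 49 others were called lower, and the group had only miR5026 there, which was not called. At 10 to 99 reads, 2 of 16 of the group and 20 of 70 others were called lower. The part of Col abundance in the gap and in the calls was not tested. No library of a second cdf2 or Col plant pool was analysed here to show how far 2 libraries of 1 genotype differ, and at an assumed coefficient of variation of 0.2 the exact test of edgeR called 0 of the group lower and 0 higher, with 1 at an unadjusted p under 0.05.

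The miR5020 family supplied 3 of the 4 miRNAs called lower in cdf2. miR5020b had 118 reads in cdf2 and 270 in Col, a fold change of 0.407 (0.325 to 0.507). miR5020c had 30 reads in cdf2 and 55 in Col (0.507, 0.314 to 0.806), and miR5020a had 72 in cdf2 and 108 in Col (0.620, 0.454 to 0.843). Over the 6 scales the fold change ran from 0.232 to 0.736 for miR5020b, from 0.289 to 0.918 for miR5020c and from 0.353 to 1.12 for miR5020a, so the direction of the last flips with the sum of miRNA counts. miR5020a and miR5020b lie within a few kilobases of each other on the same strand of chromosome 4, at 6791401 to 6791421 and 6787108 to 6787128. miR5020c is annotated at chr2:4770550-4770570 (+), but its 21 bases also occur at chr4:6791406-6791426 (−), across the position of miR5020a. Their reads cannot therefore be taken as 3 independent measurements.

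miR5652 was the fourth, with 15 reads in cdf2 and 31 in Col (0.450, 0.226 to 0.859; 0.256 to 0.814 over the scales). Next to it but not called was miR5023, with 29 reads in cdf2 and 44 in Col, where the interval of 0.370 to 1.002 just included 1. Both miR5642 rows were lower by less than 1.5-fold, at 274 and 271 reads in cdf2 against 362 and 354 in Col (0.704 and 0.712), and their ratios were 1.27 and 1.29 with the sum of miRNA counts. miR5026 was close to Col at 0.882 (0.857 to 0.907), a ratio that ran from 0.502 to 1.60 over the scales.

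Called higher in cdf2 were miR5635d and miR5655. miR5635d had 901 reads in cdf2 and 542 in Col, a fold change of 1.55 (1.39 to 1.72). The other miR5635 rows, of the same sequence, were below the 1.5-fold limit, at 1.41 for miR5635b and miR5635c and 1.25 for miR5635a. miR5655 had 74 reads in cdf2 and 45 in Col, a fold change of 1.53 (1.04 to 2.27). For both the direction turned with genome-matched reads, the scale in doubt, at 0.881 for miR5635d and 0.871 for miR5655. miR5653 stood at 1.34 (770 reads in cdf2 and 533 in Col). Larger ratios that were not called came from few reads, such as 1.73 for miR5646 (26 reads in cdf2 and 14 in Col) and 1.55 for miR5657 (25 in cdf2 and 15 in Col), with intervals of 0.870 to 3.58 and 0.786 to 3.16. Among miRNAs with 10 or more reads in the pair, the largest ratio, 3.02 for miR5651, came from 13 reads in cdf2 and 4 in Col, and its interval of 0.934 to 12.7 included 1. The miR5645 rows of 20 bases, the most abundant after miR5026, ran from 0.958 to 1.04.

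**Figure D4:**
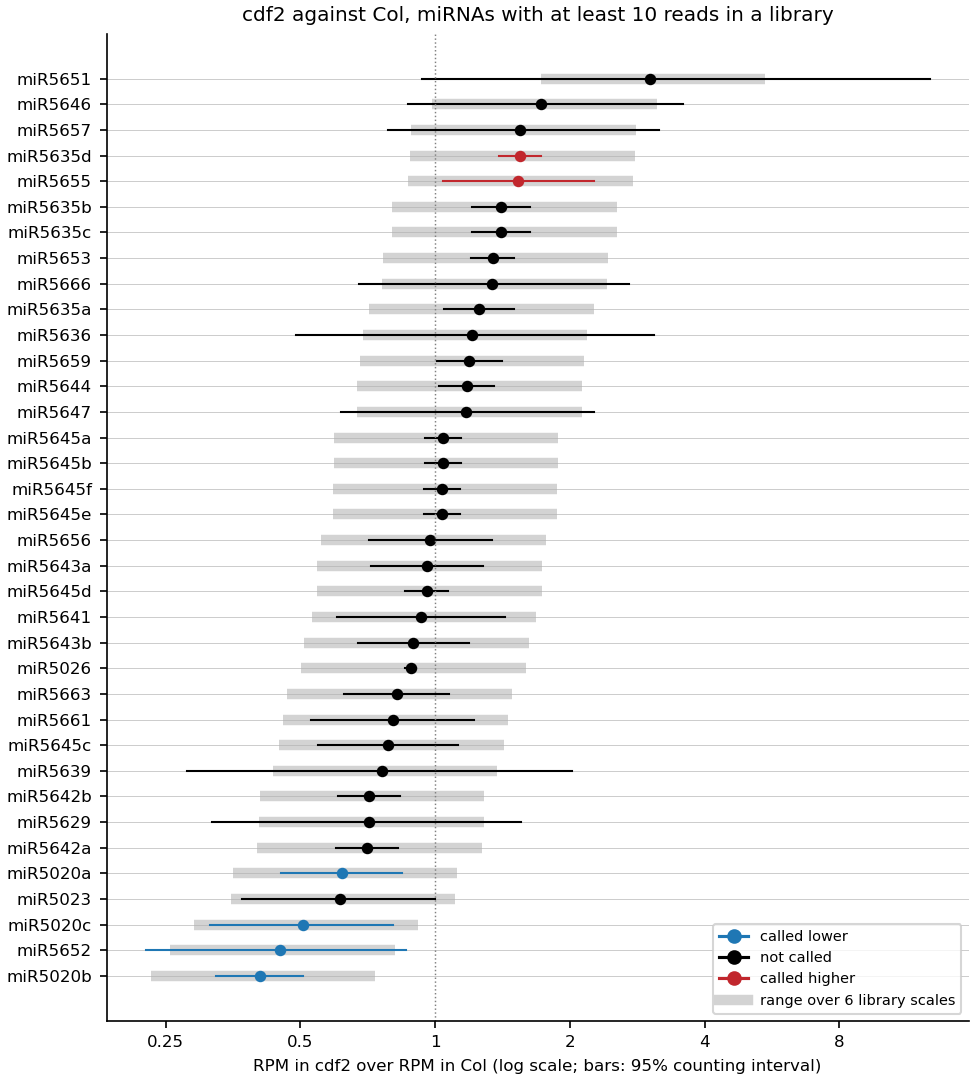
Fold change of RPM in cdf2 over Col (log axis) for the 36 miRNAs that reached 10 reads in a library, 1 library per genotype; thin bars are 95% counting intervals, grey bars the range of the point value over 6 library scales, and colours the calls. The 3 miR5020 miRNAs and miR5652 lie lowest among the calls, at 0.407 to 0.620, and among the called miRNAs the grey bars of miR5020a, miR5635d and miR5655 cross 1.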

How the data were processed

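The authors isolated small RNAs from 22-day-old seedlings, sequenced them on the Illumina platform, removed adaptor sequence, and used Bowtie to place reads on miRBase version 15 hairpins before matching them to miRNA database version 16. The deposited values are raw counts of reads per miRNA, 1 library per genotype, and the submitters' notes name the TAIR10 build. How reads that match several miRNAs were counted is not given in the sources used here. The authors' comparison tables hold RPM, fold change and p-value columns. Those tables served only for their library totals and their counts, and their 4 RPM columns were not used. Their mutant counts equal the library counts. Their Col counts do so wherever the Col library lists the name, which was 194 of 194 names for cdf2 and 172 of 195 for dcl1-9. The total reads that set the main scale come from the study's text, while the deposited tables carry other totals (9443719 for dcl1-9, 14406060 for cdf2 and 14073145 for Col).

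Counts were joined by name, 16 of the 308 miRNAs joined to dcl1-9 through a later name. A later name was taken where the family number and the Col count given by the authors were the same. Fold changes of RPM, with 95% Clopper-Pearson intervals from the split of reads between 2 libraries, were computed with scipy 1.17.1 over all joined miRNAs. Reads carry no molecular identifiers, so intervals and floors cover counting error only. Calls needed at least 10 reads in the pair, a fold of at least 1.5 and an interval that excludes 1, and 3 reads were the floor. The calls were tested on simulated data. No edgeR quasi-likelihood test was possible with 1 library per genotype, so edgeR 4.0.16 (exact test at an assumed coefficient of variation of 0.2 or 0.4) and DESeq2 1.42.0 (size factors) served as alternatives, beside other scales, filters, Fisher's exact test and fold limits. Sequences and gene positions came from the RefSeq annotation and genome of TAIR10.1, searched on both strands for further copies without mismatch. Every miRNA with at least 10 reads in a library was named. The miRNAs, lists and tests were chosen with earlier results of these data known. The comparison at like abundance and the length and copy classes at 100 reads or more were added after seeing the data.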

Additional observations from a re-analysis of the deposited data

Results flagged for a closer look

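The dcl1-9 library and the authors' table for dcl1-9 also list miRNAs numbered 5000 and above that the Col library list does not name, with Col reads given only in that table. They were outside the comparisons above and stood out because their Col reads exceed the 3 reads that a count of 0 allows. miR5996 had 6 reads in dcl1-9 and 732 in Col, 139-fold lower in dcl1-9 on the total-read scale, which would place it among the most abundant of the group. miR5014b had 5 reads in dcl1-9 and 58 in Col, 13.2-fold lower. miR5997 had 0 reads in dcl1-9 and 46 in Col, 17.5-fold lower with 3 reads taken as the floor of dcl1-9. miR5999 had 0 in dcl1-9 and 19 in Col, 7.21-fold lower against that floor. With counting error, the upper bounds of their ratios to Col were 0.0733 for miR5997 and 0.188 for miR5999. miR5654-3p had 1 read in dcl1-9 and 28 in Col, although the Col library list gives 5 reads under the name miR5654. miR5995b had 1 read in dcl1-9 and 18 in Col. No cdf2 value was used for these 6 names.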

How the results depend on the processing

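No paired analysis was possible because the labels give 1 library per genotype, and for the same reason none was left out. A difference between libraries cannot be told apart from one between genotypes. The result in dcl1-9 depended on whether the scale was set on the miRNAs themselves. With the totals of the deposited tables and with genome-matched reads, 35 were lower and 0 higher, as on the total-read scale. The 35 lower calls became 3 with the sum of miRNA counts, 3 with DESeq2 size factors and 2 with TMM factors, and the 0 higher calls became 12, 12 and 17. The median log2 change of −3.45 turned to 1.28, 1.44 and 1.92 on those scales, and was −2.69 with the totals of the deposited tables, −3.11 with genome-matched reads, −2.81 with at least 1 read in the pair and −4.18 with 1 read added to every count. With at least 100 reads in the pair 20 were lower, and by fold alone, with at least 1 read in both libraries, 28 were lower and 1 was higher. edgeR's exact test called 35 lower at an assumed coefficient of variation of 0.2 and 30 at 0.4. In cdf2 the 4 lower and 2 higher calls became 0 and 24 with the sum of miRNA counts, 21 and 0 with genome-matched reads, 1 and 11 with DESeq2 size factors, and 2 and 7 with TMM factors. They were 2 and 0 with a fold of at least 2, 8 and 12 by fold alone, 0 and 0 with edgeR's exact test at 0.2 and at 0.4 (1 and 0 of the group at an unadjusted p under 0.05). With at least 100 reads in the pair 2 were lower, and with Fisher's exact test 1 was higher. The cdf2 median of 0.05 was 0.91 with the sum of miRNA counts, 0.45 with DESeq2 size factors and 0.30 with TMM factors, and turned to −0.76 with genome-matched reads and −0.10 with at least 1 read in the pair. At a limit of 10 reads, 17 were detected in dcl1-9, 35 in cdf2 and 35 in Col, and with at least 100 reads in Col 2 were at the floor in dcl1-9.

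With the sum of miRNA counts as the scale, the fold change of dcl1-9 over Col was above 1 for 19 of the 36 named miRNAs that were lower on the total-read scale, at 4.12 for miR5629, 3.78 for miR5635a and miR5659, 3.51 for miR5635b and miR5635c, 2.93 for miR5635d, 2.12 for miR5639, 10.4 for miR5642a, 7.71 for miR5642b, 2.62 for miR5643a, 2.92 for miR5643b and miR5644, 1.25 for miR5645a and miR5645b, 1.07 for miR5645d, 1.22 for miR5645f, 2.14 for miR5653, 2.07 for miR5655 and 3.11 for miR5657. With DESeq2 size factors, the fold change of dcl1-9 over Col was above 1 for 19 of the 36 named miRNAs that were lower on the total-read scale, at 4.61 for miR5629, 4.23 for miR5635a and miR5659, 3.93 for miR5635b and miR5635c, 3.27 for miR5635d, 2.37 for miR5639, 11.6 for miR5642a, 8.63 for miR5642b, 2.93 for miR5643a, 3.26 for miR5643b and miR5644, 1.39 for miR5645a and miR5645b, 1.19 for miR5645d, 1.37 for miR5645f, 2.40 for miR5653, 2.32 for miR5655 and 3.48 for miR5657. With TMM factors, the fold change of dcl1-9 over Col was above 1 for 23 of the 36 named miRNAs that were lower on the total-read scale, at 1.35 for miR5020a and miR5656, 1.32 for miR5020c, 6.41 for miR5629, 5.89 for miR5635a and miR5659, 5.47 for miR5635b and miR5635c, 4.56 for miR5635d, 3.30 for miR5639, 16.2 for miR5642a, 12.0 for miR5642b, 4.08 for miR5643a, 4.54 for miR5643b and miR5644, 1.94 for miR5645a and miR5645b, 1.66 for miR5645d, 1.36 for miR5645e, 1.90 for miR5645f, 3.34 for miR5653, 3.23 for miR5655 and 4.84 for miR5657. In cdf2, the fold change of miR5020a was 1.12 with the sum of miRNA counts, and that of miR5635d was 0.881 and that of miR5655 was 0.871 with genome-matched reads. Each scale moves all miRNAs of a library by 1 factor, and that of genome-matched reads is in doubt for the reason given above.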
